A study of Mus musculus with 13 samples.

Results

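The S100 proteins are small calcium-binding proteins with a pair of EF-hand loops, most of which work as dimers inside the cell and some of which are also released and bind receptors on other cells. S100A8 and S100A9 form calprotectin, which fills the cytosol of neutrophils and signals through TLR4 and RAGE once released. S100A4 and S100A6 bind cytoskeletal and nuclear partners, S100A10 and S100A11 pair with annexins at membranes, S100A1 tunes calcium handling and S100A13 takes part in the release of proteins without a signal peptide. In the lung these genes are known mainly from leukocytes that enter the airspaces and from epithelium and mesothelium.

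The 8 S100 genes taken were S100a1, S100a4, S100a6, S100a8, S100a9, S100a10, S100a11 and S100a13, matched by symbol among the 31053 genes of the matrix, and all 8 were found. Their counts of unique molecular identifiers (UMIs, each marking 1 captured RNA molecule) were followed over marker-defined classes of cells from mouse lung and over libraries. By their titles, single samples are Asthma, PPE-emphysema, PPE-recovery and Control. The study describes an ovalbumin asthma model, repeated porcine pancreatic elastase (PPE) in the airways for emphysema, and 1 instillation of PPE for recovery. The legend of the study's single-cell experiment, which used C57BL/6 mice, gives 1 mouse per group. A further 3 groups of 3 samples, labelled acute injury, con and emphysema, complete the 13 samples in 7 groups, and no separate file of theirs was analysed here. The matrix numbers its barcodes by library, from 1 to 7, and gives no library a sample or group, so it was handled as 1 pooled sample. No comparison between asthma, emphysema, recovery and control could be made, and no value below has a replicate or a test. Levels are UMIs of a gene per 1000000 UMIs of the class (CPM) with exact 95% Poisson intervals, and shares of cells carry exact 95% binomial intervals, which take in the counting error alone. The kit counts each molecule once at one end of its transcript, so CPM does not grow with gene length.

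Of 37344 barcodes, 33618 had at most 10% mitochondrial UMIs and were kept. The median depth of the 7 libraries was 5272 to 9114 UMIs per cell, and each library summed to between 29619014 and 76435633 UMIs. The libraries were not alike in content. Libraries 1, 2, 3 and 7 held transcripts of lung epithelium (Sftpc of type 2 cells at 2674 CPM or more, Scgb1a1 of club cells at 5467 CPM or more). The sample labels name lung throughout, but no library is tied to a label. In libraries 4, 5 and 6, Hbb-bs, a globin of red cells, stood at 160900 to 200407 CPM. Sftpc, Scgb1a1, Col1a1 of fibroblasts and Cdh5 of endothelium were at 0.574 CPM or less there. The 20856 cells of libraries 1, 2, 3 and 7 are therefore the basis of what follows, and the 12762 cells of the hemoglobin-rich libraries 4, 5 and 6 are given beside them. Between 2 and 17 barcode sequences were shared by each pair of libraries, 153 of 37191 distinct sequences in all. Cells were grouped into 46 clusters with 0 S100 genes among the genes used, and 36 clusters could be named from markers. A class is called by its markers and the suffix -like, and the 3311 cells of the other 10 clusters stayed unnamed.

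All 8 genes lie on mouse chromosome 3 in 2 groups (build GRCm38, GENCODE M21 gene models). S100a1 (ENSMUSG00000044080, chr3:90511034-90514392, minus strand) and S100a13 (ENSMUSG00000042312, chr3:90514435-90524581, plus strand) stand head to head with 42 bases between them. S100a4 (ENSMUSG00000001020, chr3:90603771-90606045, plus strand), S100a6 (ENSMUSG00000001025, chr3:90612882-90624181, plus strand), S100a8 (ENSMUSG00000056054, chr3:90668978-90670035, plus strand) and S100a9 (ENSMUSG00000056071, chr3:90692632-90695721, minus strand) follow. The other group, 2824766 bases further on, is S100a11 (ENSMUSG00000027907, chr3:93520488-93526287, plus strand) and S100a10 (ENSMUSG00000041959, chr3:93555080-93564643, plus strand). S100a4 overlaps the gene model Gm42674 on the same strand, and S100a11 has a processed pseudogene, so the assignment of some of their reads is uncertain.

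The promoters of the genes that led the largest leukocyte differences and of the head-to-head pair are shown here, each as 250 bases before and 50 after the RefSeq start on GRCm38.p6, with the letters TATAAA in capitals. They are S100a8 (chr3:90668821-90669120, plus strand), S100a9 (chr3:90695672-90695971, minus strand), S100a4 (chr3:90603520-90603819, plus strand) and S100a13 (chr3:90514185-90514484, plus strand).
S100a8: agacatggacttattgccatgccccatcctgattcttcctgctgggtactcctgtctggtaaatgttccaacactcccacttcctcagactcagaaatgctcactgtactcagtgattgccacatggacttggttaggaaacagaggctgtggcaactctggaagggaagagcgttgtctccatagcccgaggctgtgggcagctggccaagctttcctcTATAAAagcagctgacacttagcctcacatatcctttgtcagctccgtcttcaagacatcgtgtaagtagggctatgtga
S100a9: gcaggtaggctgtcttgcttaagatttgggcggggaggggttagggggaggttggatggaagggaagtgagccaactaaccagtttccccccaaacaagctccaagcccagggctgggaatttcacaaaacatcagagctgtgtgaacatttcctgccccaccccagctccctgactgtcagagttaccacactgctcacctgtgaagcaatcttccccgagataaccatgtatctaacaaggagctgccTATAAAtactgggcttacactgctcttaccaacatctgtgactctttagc
S100a4: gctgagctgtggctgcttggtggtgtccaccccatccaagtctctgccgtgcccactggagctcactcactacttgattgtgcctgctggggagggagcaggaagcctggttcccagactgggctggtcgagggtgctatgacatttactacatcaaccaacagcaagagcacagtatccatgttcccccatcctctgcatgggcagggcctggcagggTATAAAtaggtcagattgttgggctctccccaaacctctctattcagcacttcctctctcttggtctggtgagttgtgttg
S100a13: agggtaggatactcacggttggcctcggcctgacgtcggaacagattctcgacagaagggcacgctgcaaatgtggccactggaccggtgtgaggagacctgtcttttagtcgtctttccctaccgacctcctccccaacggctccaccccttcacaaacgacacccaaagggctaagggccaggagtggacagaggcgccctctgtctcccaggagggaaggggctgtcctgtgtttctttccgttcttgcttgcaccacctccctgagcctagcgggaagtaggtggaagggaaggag
TATAAA began 30 bases before the RefSeq start of S100a8, 31 bases before that of S100a4 and at the start itself in S100a9. The letters were absent from the sense strand of the windows of S100a1, S100a6, S100a11 and S100a13, while 8.88% of 27025 mouse promoters of the same length held them in sense (14.2% on either strand). The C/EBP letters TTNNGNAA occurred once in sense for S100a8, 117 bases before the start, and in antisense at 2 places for S100a9, against 40.7% of all promoters on either strand. GAGGAA, the core of PU.1 sites, was found in antisense in S100a4 (1 place) and S100a8 (2 places) and in sense in S100a11 (1 place), against 28.3% of promoters. S100a11 also held 2 AP-1 words TGANTCA and 3 GC boxes GGGCGG, which 7.93% and 35.9% of promoters hold, and S100a9 held 1 GC box in sense, 223 bases before the start. The windows of S100a1 and S100a13 share 204 bases on opposite strands, since their starts are 105 bases apart, and neither held any of the 5 motifs searched. For S100a10 no promoter was matched.

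Calprotectin came first among the 8 genes by level. In the 1398 neutrophil-like cells, S100a8 stood at 51622 CPM (51406 to 51840) and S100a9 at 59227 CPM (58995 to 59460). Neutrophil-like cells supplied 2.11% of all UMIs of libraries 1, 2, 3 and 7, yet 82.2% of the UMIs of S100a8 and 84.0% of those of S100a9. S100a11 and S100a6 also reached their highest level there, at 5486 CPM (5416 to 5557) and 5670 CPM (5598 to 5742), and neutrophil-like cells gave 15.8% and 10.8% of their UMIs. The first place of S100a6 was narrow and passed to mesothelial-like cells without the cells called doublets (5653 against 5599 CPM) and over all 7 libraries (5405 against 5375 CPM). The other members were low in the same cells. S100a10 was at its lowest of 21 classes in them, with 25.8 CPM, as was S100a13, with 53.1 CPM, and S100a4 stood at 46.2 CPM and S100a1 at 8.05 CPM. Neutrophil-like cells thus held 4 members high and 4 members low.

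**Figure D1:**
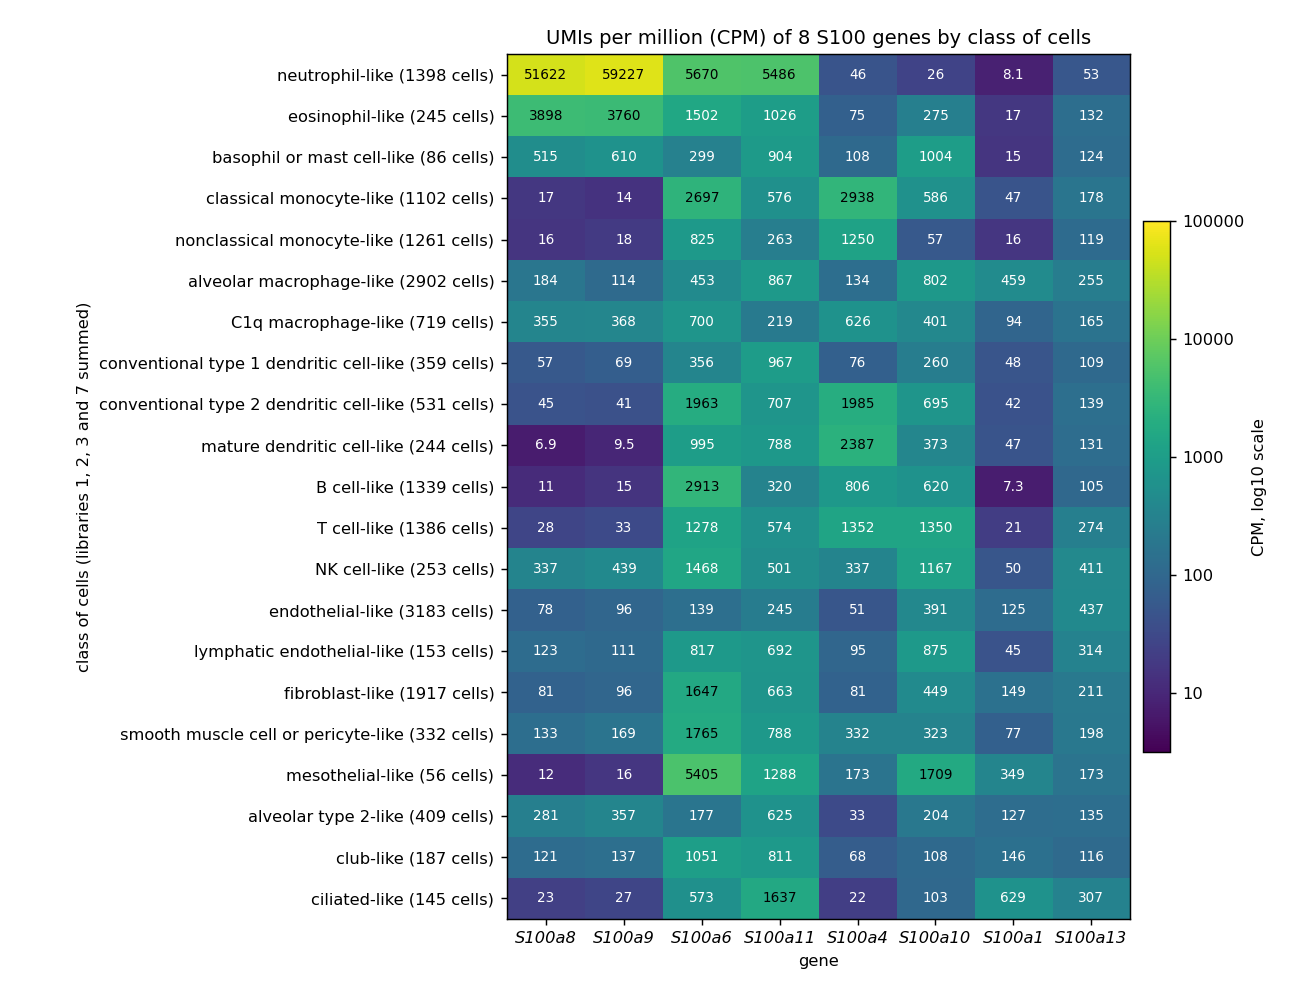
Level of each S100 gene (columns) in 21 classes of at least 50 cells (rows), summed over libraries 1, 2, 3 and 7; the number in each field is in CPM and the color is the same value on a log10 scale. The neutrophil-like row holds the highest value of S100a8, S100a9, S100a11 and, narrowly and not without called doublets or over all 7 libraries, S100a6, while S100a4 is highest in classical monocyte-like cells (2938 CPM) and S100a1 in ciliated-like cells (629 CPM).

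In libraries 1, 2, 3 and 7, respectively, neutrophil-like S100a8 was 46940, 54025, 51899 and 49861 CPM, and S100a9 was 71821, 60052, 60118 and 55481 CPM. Library 1, with 82 neutrophil-like cells, had the lowest S100a8 and the highest S100a9, and S100a9 made up 60.5% of the pair there (59.8 to 61.1). In the other 6 libraries that share lay between 50.8% and 53.7%. Together both genes were 10.5% to 11.9% of all UMIs of neutrophil-like cells in libraries 1, 2, 3 and 7, and 21.5%, 10.8% and 17.3% in libraries 4, 5 and 6. Library 5 overlapped the libraries with epithelium, while libraries 4 and 6 stood above them. The cells compared were not of like depth. In libraries 4, 5 and 6 the shallowest kept cell had 5735, 3439 and 3946 UMIs. In libraries 1, 2, 3 and 7 it had 304 to 501 UMIs, and neutrophil-like cells had medians of 2228 to 3103 UMIs. Nor were they of like clusters, and 125 of the 252 neutrophil-like cells of library 4 were in cluster 36, described below. Cluster 18 of library 4 had 39835 CPM of S100a8 and 46065 CPM of S100a9, each below libraries 1, 2, 3 and 7. Cluster 18 of library 6 had 83392 and 88753 CPM, above them. The parts of the depth limit and of the cluster mix in the difference were not tested.

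The neutrophil-like cells fell into 3 clusters. Cluster 36, led by the secondary granule genes Ngp, Camp and Ltf that immature neutrophils make, had 155589 CPM of S100a8 and 164842 CPM of S100a9 in its 131 cells of libraries 4, 5 and 6. Cluster 18, led by Retnlg and Cxcr2 of mature blood neutrophils, had 57906 and 62257 CPM in 528 cells of these libraries. Cluster 10, led by Il1b, G0s2 and Ptgs2, had 74005 and 78542 CPM in 49 cells there. The 3 clusters were filled by different libraries, with 125 of the 131 cells of cluster 36 in library 4 and 41 of the 49 of cluster 10 in library 5, so that cluster and library are largely confounded.

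Library 4 held both cluster 36 and cluster 18. There S100a8 was 155561 CPM in cluster 36 and 39835 CPM in cluster 18, and S100a9 was 164976 and 46065 CPM. S100a11 and S100a6 differed little by comparison, with 2329 and 2588 CPM of S100a11 and 4011 and 3800 CPM of S100a6. Library 5 held clusters 18 and 10, where S100a8 was 45127 and 74257 CPM, S100a11 3858 and 6427 CPM and S100a6 4282 and 8158 CPM. Cluster 10 was the higher for all of these genes.

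In libraries 1, 2, 3 and 7, cluster 10 held 1349 of the 1398 neutrophil-like cells, with 46617 CPM of S100a8, 54305 CPM of S100a9, 5492 CPM of S100a6 and 5573 CPM of S100a11. Cluster 18 had 30 cells there, with 91083 CPM of S100a8, 9245 CPM of S100a6 and 6286 CPM of S100a11. The 19 cells of cluster 36 had 137134 CPM of S100a8, 7303 CPM of S100a6 and 3045 CPM of S100a11. Cluster 36 was highest for S100a8 and lowest for S100a11 in both sets of libraries. Clusters 10 and 18 changed places between the sets for S100a8, S100a9, S100a6 and S100a11. In the hemoglobin-rich libraries cluster 10 was above cluster 18, with 74005 against 57906 CPM of S100a8 and 6391 against 3883 CPM of S100a11. In libraries 1, 2, 3 and 7 cluster 18, with 30 cells, was above cluster 10 for these genes. The clusters were formed without S100 genes but on the same cells, so these differences describe them and are not tested.

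**Figure D2:**
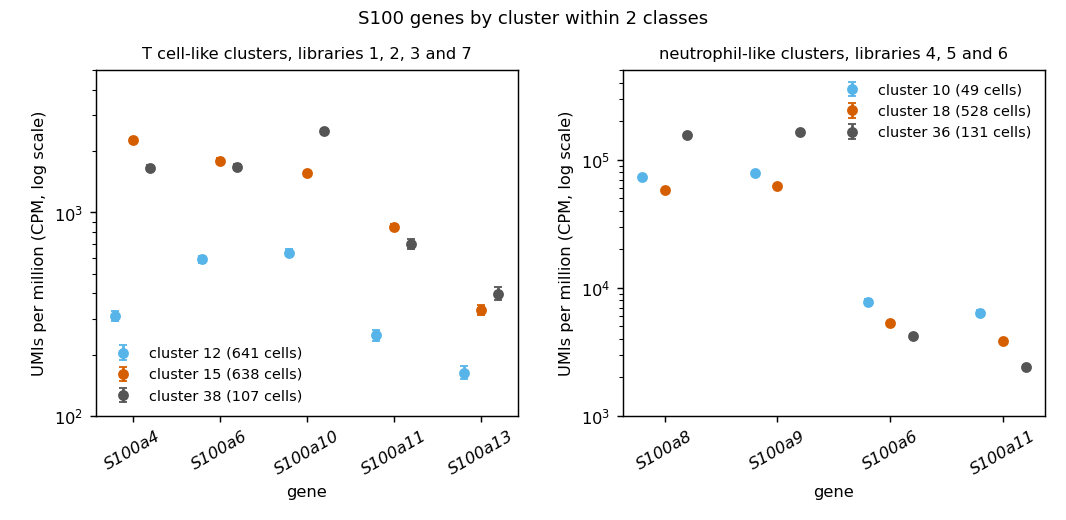
Left, level of 5 S100 genes in the 3 T cell-like clusters of libraries 1, 2, 3 and 7; right, level of 4 S100 genes in the 3 neutrophil-like clusters of libraries 4, 5 and 6, in CPM on log axes, with bars for exact 95% Poisson intervals where wider than the points. Cluster 12 lies lowest for all 5 genes on the left, and cluster 36, of which 125 of 131 cells are in library 4, lies highest for S100a8 and S100a9 on the right; within library 4 its S100a6 (4011 CPM) is not below that of cluster 18 (3800 CPM).

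In the named classes other than neutrophil-like cells, S100a8 and S100a9 came mostly from few cells in libraries 1, 2, 3 and 7. Unnamed cells, not counted here, held 2503, 12539, 29631 and 12656 UMIs of the pair in these libraries. Of these UMIs, 78.3%, 93.4%, 99.3% and 91.6% lay in cells with 20 or more. Among the other named classes of libraries 1, 2, 3 and 7, 103 cells (0.611%) had 20 or more UMIs of the pair, and they held 78.2% of its UMIs there. Their median depth was 13648 UMIs against 7949 in the rest, and Scrublet called 30.1% of them doublets against 2.32% of the rest. Of these cells 87.4% had a UMI of Retnlg, a neutrophil gene that eosinophil-like cells also held, against 2.66%. S100a9 made up 52.9% of the pair in these cells (52.3 to 53.4), close to the 53.4% of neutrophil-like cells (53.3 to 53.6). In libraries 4, 5 and 6 the 48 such cells held 27.3% of the pair's UMIs, and 72.7% lay in cells with fewer. Pooled levels of some but not all classes of libraries 1, 2, 3 and 7 turned on the 103 cells. B cell-like cells had 0 of them, and in classical monocyte-like cells they held 23.1% of the pair's UMIs. Alveolar macrophage-like cells had 184 CPM of S100a8 with them and 95.6 CPM without. The 253 NK cell-like cells had 337 CPM of S100a8 and 439 CPM of S100a9, and 12.8 and 15.4 CPM without 2 cells. The 719 C1q macrophage-like cells had 355 and 368 CPM, 169 and 182 CPM without library 7, and 7.56 and 11.7 CPM without 11 cells of 20 or more. The 409 alveolar type 2-like cells had 281 and 357 CPM, and 11.2 and 16.9 CPM without 13 cells.

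The eosinophil-like cells, the second class for both genes, were the extreme case. Their 245 cells had a median of 555 UMIs and gave 3898 CPM of S100a8 and 3760 CPM of S100a9, but 1 cell of library 2 held 1190 of the 1336 UMIs of the pair. Library 7, with 210 of these cells, had 18 UMIs of S100a8 and 82 of S100a9 (128 and 583 CPM). Library 1, with 31 cells, had 27 and 19 UMIs, and the highest of its cells had 36 UMIs of the pair. Without the cells of 20 or more, S100a9 was 83.6% of the pair in eosinophil-like cells (75.4 to 90.0), above its share in neutrophil-like cells. These few UMIs in shallow cells do not show whether eosinophil-like cells carry the genes.

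In the cells with under 20 UMIs of the pair, 18 of 19 classes other than neutrophil-like and eosinophil-like cells formed 1 low band. Their level of the pair ran from 14.8 CPM in conventional type 1 dendritic cell-like cells to 38.4 CPM in endothelial-like cells. These classes were not of like depth. Over all their cells, medians by library were 16179 to 19738 UMIs in the former and 4840 to 6045 UMIs in the latter. The part of depth in this range, and in the thinned shares below, was not tested. S100a9 was 43.8% to 64.0% of the pair, a share that was not uniform within the band. It was 43.8% in classical monocyte-like (37.4 to 50.3), 45.6% in fibroblast-like (42.0 to 49.2) and 59.9% in endothelial-like cells (56.4 to 63.4). Classical monocyte-like cells of library 1 had 33 UMIs of S100a8 and 12 of S100a9, or 26.7% S100a9 (14.6 to 41.9). The values of B cell-like and endothelial-like cells were taken as the level of free RNA. Free RNA lyses out of other cells and is caught in every droplet. That use assumes that these cells make neither S100a8 nor S100a9, which was not tested. To compare libraries, each cell was thinned to 1000 UMIs, and cells below that depth were left out (2 of 1339 B cell-like, 117 of 2902 alveolar macrophage-like and 208 of 3183 endothelial-like cells). After thinning, 3.44% of B cell-like cells had a UMI of S100a8 or S100a9 (2.53 to 4.56), 3.54% of T cell-like (2.62 to 4.66), 4.19% of fibroblast-like (3.30 to 5.23) and 5.24% of endothelial-like cells (4.47 to 6.11). In neutrophil-like cells the share was 99.5%.

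By library, the thinned share in B cell-like cells was 0.613%, 3.40%, 4.64% and 4.94% in libraries 1, 2, 3 and 7, and 29.3%, 19.3% and 34.2% in libraries 4, 5 and 6. Unthinned, it was 1.53%, 21.1%, 15.6% and 18.9%, and 95.1%, 64.7% and 88.5%, at median depths of 3784, 4016, 3579 and 11258 UMIs, and 9779, 5224 and 4887 UMIs. Library 1 was the lowest and libraries 4, 5 and 6 the highest on either scale. Erythroid-like cells of libraries 4, 5 and 6, which lack calprotectin in textbook accounts, had shares of 18.3%, 13.6% and 30.04%, the same order. The level of the pair over all cells of a library was 587 CPM in library 1, 2066 in library 2, 4914 in library 3 and 4741 in library 7, and 18294, 4940 and 9458 CPM in libraries 4, 5 and 6. Library 1 also had the smallest share of neutrophil-like cells (1.71%). How far the free RNA follows from the neutrophil-like cells of a library was not tested.

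**Figure D3:**
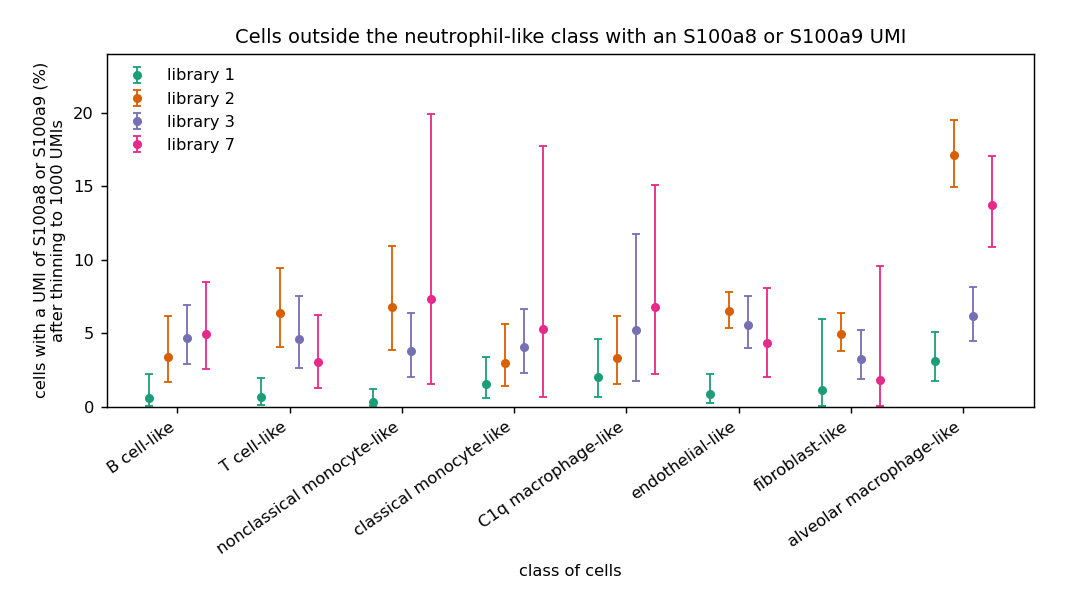
Share of cells with a UMI of S100a8 or S100a9 after thinning every cell to 1000 UMIs, in 8 classes outside the neutrophil-like one (x axis), with 1 point per library and exact 95% binomial intervals as bars. Alveolar macrophage-like cells reach 17.1% in library 2 and 13.7% in library 7, above the other classes of the same libraries by value, and library 1 gives the lowest value in each of the 8 classes.

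Alveolar macrophage-like cells did not follow this band. Their thinned share was 11.2% (10.1 to 12.5), and by library it was 3.09%, 17.1%, 6.14% and 13.7% in libraries 1, 2, 3 and 7. The excess was in S100a8. In cells with under 20 UMIs of the pair, library 1 had 190 UMIs of S100a8 and 9 of S100a9, or 31.5 and 1.49 CPM, and S100a9 made up 4.52% of the pair (2.09 to 8.41). Libraries 2, 3 and 7 had 147, 40.2 and 106 CPM of S100a8 beside 17.4, 20.9 and 20.6 CPM of S100a9. S100a9 was then 10.5% (9.40 to 11.8), 34.2% (30.4 to 38.2) and 16.2% (14.1 to 18.5) of the pair. In endothelial-like cells of libraries 1, 2, 3 and 7 the lower bounds of that share were 32.8%, 55.9%, 52.5% and 45.0%, each above the macrophages' upper bound. The pooled level of S100a9 itself, 16.6 CPM, lay within the range of the band, 9.39 to 23.0 CPM. In library 2 it was below that of endothelial-like cells, by intervals that did not meet (15.4 to 19.6 against 24.8 to 31.2). Endothelial-like cells had 3.59, 27.8, 27.4 and 22.3 CPM of S100a9 in the same libraries and 3.04, 18.3, 18.4 and 15.4 CPM of S100a8.

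The neutrophil gene Retnlg gave 68.7 UMIs per 1000 UMIs of the pair in neutrophil-like cells, 63.4 in lymphocytes with under 20 UMIs of the pair and 15.9 in alveolar macrophage-like cells with under 20. Retnlg was not confined to neutrophil-like cells. Eosinophil-like cells with under 20 held 656 UMIs of it beside 100 of the pair in library 7. In library 1 they held 155 beside 10 of S100a9 and 0 of S100a8. Lcn2 and Csf3r did not follow Retnlg. Per 1000 UMIs of the pair, Lcn2 gave 13.1 UMIs in neutrophil-like cells, 50.4 in these lymphocytes and 16.8 in these alveolar macrophage-like cells. Csf3r gave 26.7, 80.2 and 147 in the same order. Both ratios to the pair were thus higher in the lymphocytes than in neutrophil-like cells, but the genes themselves were not. The 1398 neutrophil-like cells held 6132 UMIs of Lcn2 and 12516 of Csf3r, and the 2975 lymphocytes held 27 and 43. Both alveolar macrophage-like clusters had the excess of S100a8 in library 1. Cluster 4 (led by Plet1 and Spp1) had 32.3 CPM of S100a8 and 1.56 CPM of S100a9, and cluster 13 (led by Fabp1 and Marco) had 26.8 and 1.12 CPM. The unnamed cluster 9 was led by Arg1, Mmp12 and Ccl24, with C1q macrophage as its best-scoring class and 563 CPM of C1qa. It had 50.8 CPM of S100a8 and 1.82 CPM of S100a9 in library 1, 141 and 17.0 CPM in library 2 and 84.4 and 37.7 CPM in library 7. C1q macrophage-like cells, in contrast, had 7.56 CPM of S100a8 and 11.7 CPM of S100a9, and S100a9 was 60.7% of the pair (52.2 to 68.7), as in the band. In thinned cells with under 20 UMIs, the share with S100a8 was 3.09%, 12.8%, 3.66% and 6.64% in alveolar macrophage-like cells of libraries 1, 2, 3 and 7, and the share with S100a9 was 0.00% (up to 0.758), 2.53%, 1.69% and 3.22%.

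**Figure D4:**
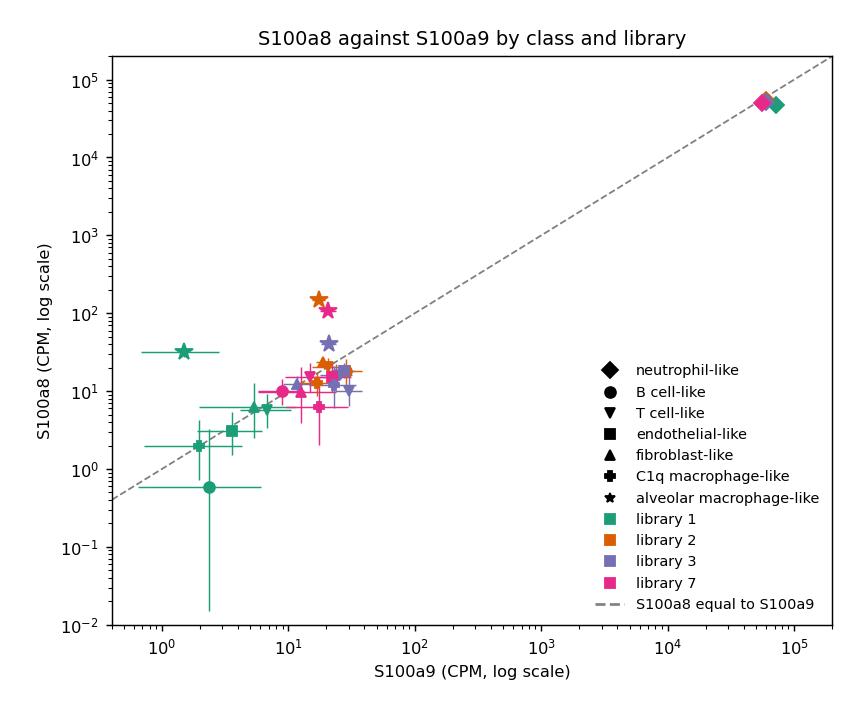
Level of S100a8 (y axis) against S100a9 (x axis), both in CPM on log scales, for 7 classes (symbols) in libraries 1, 2, 3 and 7 (colors), with exact 95% Poisson intervals as bars; classes other than the neutrophil-like one are shown without cells of 20 or more UMIs of the pair, and the dashed line marks equal levels. The 4 stars of alveolar macrophage-like cells lie above the line, at 31.5, 147, 40.2 and 106 CPM of S100a8. The other classes lie on both sides of it, and not all of them close to it. Endothelial-like cells of library 2 (18.3 CPM of S100a8 against 27.8 CPM of S100a9) and T cell-like cells of library 3 lie below it, and fibroblast-like cells of library 2 above it.

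A second set of cells with unequal levels appeared in library 4. Of its 932 classical monocyte-like cells, 21 had 20 or more UMIs of the pair, with 2155 UMIs of S100a8 and 670 of S100a9, so that S100a9 was 23.7% of the pair (22.2 to 25.3). In 18 of the 21 cells S100a8 outnumbered S100a9, and 1 cell held 27.1% of the S100a8 UMIs. These cells kept the monocyte genes Ly6c2 (1768 CPM) and Ccr2 (1157 CPM), while Retnlg was 28.9 CPM and Ngp 9.64 CPM, against 7117 and 13394 CPM in neutrophil-like cells of the same library. The other 911 cells had 116 CPM of S100a8 and 127 CPM of S100a9, or 52.2% S100a9 (50.3 to 54.1), as in neutrophil-like cells of library 4 (51.9%). The 21 cells were picked by the level they then show, so they are a description of these cells.

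S100a4, known for its binding of nonmuscle myosin and as a gene of motile cells, was a gene of monocytes, dendritic cells and lymphocytes. Classical monocyte-like cells led at 2938 CPM (2904 to 2972), followed by mature dendritic cell-like cells at 2387 CPM and conventional type 2 dendritic cell-like cells at 1985 CPM. T cell-like cells had 1352 CPM, nonclassical monocyte-like cells 1250 CPM and B cell-like cells 806 CPM (188 CPM without library 7). The pooled intervals of neighbors in this order did not overlap, but single libraries gave other orders. T cell-like cells were above nonclassical monocyte-like cells in library 1 (1896 against 1133 CPM). They were below them in libraries 2, 3 and 7 (1329 against 1441, 796 against 1249 and 1182 against 1878 CPM). Mature dendritic cell-like cells were below conventional type 2 ones in library 1 (2441 against 2513 CPM) and above them in libraries 2 and 7. NK cell-like cells (337 CPM) and smooth muscle cell or pericyte-like cells (332 CPM) could not be told apart at this depth. The lowest class was ciliated-like, at 22.0 CPM. Conventional type 1 dendritic cell-like cells, which take up dead cells and prime CD8 T cells, had 75.8 CPM, far below both other dendritic classes.

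Across libraries S100a4 was steady in classical monocyte-like cells. It was 2877, 3092, 2900 and 2708 CPM in libraries 1, 2, 3 and 7 and 3347, 3019 and 2868 CPM in libraries 4, 5 and 6. Mature dendritic cell-like cells had 2441, 2360 and 2396 CPM in libraries 1, 2 and 7. After thinning, 90.3% of classical monocyte-like cells had a UMI of S100a4, against 55.03% of nonclassical monocyte-like cells. C1q macrophage-like cells had 884, 286, 660 and 751 CPM in libraries 1, 2, 3 and 7, lowest in library 2.

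S100a6, or calcyclin, was high in leukocytes and in structural cells. Behind neutrophil-like cells came 56 mesothelial-like cells with 5405 CPM (5251 to 5563), B cell-like cells with 2913 CPM (1086 CPM without library 7) and classical monocyte-like cells with 2697 CPM. Conventional type 2 dendritic cell-like cells followed at 1963 CPM, smooth muscle cell or pericyte-like cells at 1765 CPM and fibroblast-like cells at 1647 CPM. Only the last of these had an interval that overlapped the next class, eosinophil-like cells. Alveolar type 2-like cells (176 CPM) and endothelial-like cells (139 CPM) closed the order. The B cell-like level came from a minority of cells in libraries 1, 2 and 3. There 26.9%, 35.4% and 18.5% of these cells had a UMI of S100a6, against 73.3% in library 7. S100a6 and S100a4 were close in classical monocyte-like cells, where S100a6 was 2431, 3001, 2732 and 2542 CPM in libraries 1, 2, 3 and 7, but parted in mesothelial-like cells, which had 173 CPM of S100a4.

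Among structural cells S100a6 varied by cluster. Fibroblast-like cluster 30, led by Dcn and Pi16 of adventitial fibroblasts, had 2996 CPM of S100a6 and 1195 CPM of S100a10. Cluster 8, led by Inmt and Mgp, had 1587 and 351 CPM, and cluster 32, led by Inmt and Npnt, had 639 and 336 CPM. The order of S100a6 was the same within library 2 (2457, 1448 and 650 CPM) and library 3 (3592, 2093 and 555 CPM). Cluster 27, led by the smooth muscle genes Acta2, Tagln and Myh11, had 2126 CPM of S100a6 and 411 CPM of S100a4. Cluster 43, led by Postn, Cox4i2 and other pericyte genes, had 437 and 40.8 CPM. Smooth muscle thus carried more of both genes than pericytes, by intervals that did not meet.

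S100a4 and S100a6 differed widely between libraries in B cell-like cells and, over all 7 libraries, in T cell-like cells. In B cell-like cells, S100a6 was 934, 1848, 613 and 6412 CPM in libraries 1, 2, 3 and 7 and 2357, 936 and 69.9 CPM in libraries 4, 5 and 6. S100a4 was 192, 340, 64.5 and 1989 CPM in libraries 1, 2, 3 and 7 and 501, 273 and 8.14 CPM in libraries 4, 5 and 6. Library 7 was the highest and library 6 the lowest for both genes. Without library 7, the pooled B cell-like level was 1086 CPM of S100a6 in place of 2913, and 188 CPM of S100a4 in place of 806. The 243 cells of library 7 also had a median of 11258 UMIs, against 3579 to 4016 UMIs in libraries 1, 2 and 3, and the part of that depth in the result was not tested. At 1000 UMIs per cell, 66.7% of B cell-like cells of library 7 had a UMI of S100a6 (60.4 to 72.6), against 15.95%, 22.4% and 9.28% in libraries 1, 2 and 3 and 46.3%, 12.0% and 4.51% in libraries 4, 5 and 6. Library 4 had 41 such cells. S100a10 moved far less in B cell-like cells, between 417 and 838 CPM in libraries 1, 2, 3 and 7 and between 477 and 1030 CPM in the others.

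T cell-like cells had 1896, 1329, 796 and 1182 CPM of S100a4 in libraries 1, 2, 3 and 7 and 416, 679 and 78.4 CPM in libraries 4, 5 and 6. S100a6 was 1590, 1240, 811 and 1438 CPM and then 603, 1561 and 200 CPM. Library 6 was again the lowest for both genes, and libraries 1, 2, 3 and 7 were above libraries 4, 5 and 6 for S100a4. Classical monocyte-like cells of library 6, for comparison, had 2868 CPM of S100a4 and 2666 CPM of S100a6, inside the range of the other libraries.

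**Figure D5:**
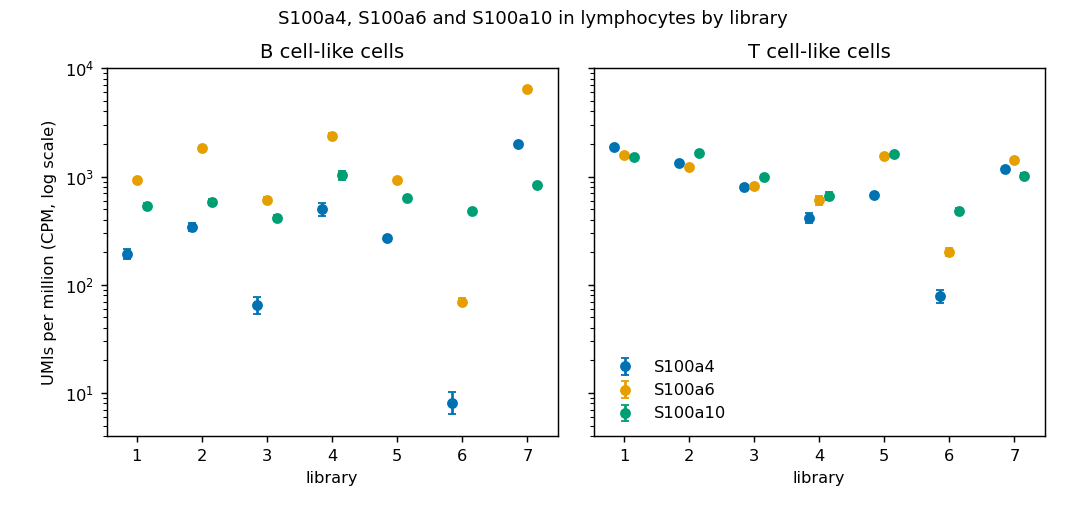
Level of S100a4, S100a6 and S100a10 in B cell-like (left) and T cell-like cells (right) of each of the 7 libraries, in CPM on a log axis with exact 95% Poisson intervals as bars. In B cell-like cells S100a6 runs from 69.9 CPM in library 6 to 6412 CPM in library 7, while S100a10 stays between 417 and 1030 CPM.

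The T cell-like class held clusters with very different S100 levels. Cluster 12, with 641 cells in libraries 1, 2, 3 and 7, was led by Cd8b1 and Lef1 and had 623 CPM of Ccr7, a chemokine receptor of resting T cells. Cluster 15, with 638 cells, was led by Icos, Cxcr6 and Ctla4 of activated T cells and had 93.8 CPM of Ccr7. S100a4 was 311 CPM (294 to 329) in cluster 12 and 2271 CPM in cluster 15. S100a6 was 589 and 1800 CPM, S100a10 633 and 1556 CPM, S100a11 249 and 847 CPM, and S100a13 164 and 331 CPM. Cluster 15 was the higher in all 5. Cluster 38, 107 cells led by dividing-cell genes such as Pclaf and Mki67, had the highest S100a10 at 2508 CPM and 1653 CPM of S100a4.

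By library, cluster 12 had 444, 290, 178 and 472 CPM of S100a4 in libraries 1, 2, 3 and 7, and cluster 15 had 2616, 2332, 1996 and 1740 CPM. The ranges did not overlap. In libraries 4, 5 and 6, cluster 12 had 277, 372 and 63.3 CPM. Cluster 12 made up 357 of the 364 T cell-like cells of library 6 and 155 of the 459 of library 1. Within cluster 12, library 6 was still the lowest of the 7.

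S100a10, the partner of annexin A2 at the cell membrane, was highest in mesothelial-like cells at 1709 CPM (1623 to 1799). T cell-like cells followed at 1350 CPM, NK cell-like cells at 1167 CPM and basophil or mast cell-like cells at 1004 CPM, the latter pair with overlapping intervals. Alveolar macrophage-like cells had 802 CPM. The monocyte classes parted clearly for this gene, with 586 CPM in classical and 57.2 CPM in nonclassical monocyte-like cells, although both were high in S100a4. Nonclassical monocyte-like cells had 54.6, 69.1, 49.3 and 99.4 CPM in libraries 1, 2, 3 and 7 and classical ones 674, 606, 495 and 470 CPM, with no overlap. Libraries 4, 5 and 6 gave 86.1, 112 and 87.7 CPM against 826, 588 and 498 CPM. NK cell-like cells were first for S100a10 in those libraries, at 1113 CPM.

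S100a11, which binds annexin A1, was found in each of the 21 classes of libraries 1, 2, 3 and 7 at 219 CPM or more. After neutrophil-like cells came ciliated-like cells at 1637 CPM (1594 to 1682) and mesothelial-like cells at 1288 CPM. Eosinophil-like, conventional type 1 dendritic cell-like and basophil or mast cell-like cells followed at 1026, 967 and 904 CPM with overlapping intervals. C1q macrophage-like cells were the lowest at 219 CPM, while alveolar macrophage-like cells had 867 CPM. By library alveolar macrophage-like cells had 819, 881, 1055 and 673 CPM and C1q macrophage-like cells 218, 201, 291 and 197 CPM in libraries 1, 2, 3 and 7, with no overlap.

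S100a1, best known from heart muscle, where it raises calcium release, was led by ciliated-like cells at 629 CPM (602 to 657). Alveolar macrophage-like cells came second with 459 CPM (453 to 466) and mesothelial-like cells next with 349 CPM. Fibroblast-like, club-like, alveolar type 2-like and endothelial-like cells lay between 125 and 149 CPM, each with an interval overlapping its neighbor's. Neutrophil-like (8.05 CPM) and B cell-like cells (7.26 CPM) were lowest. Ciliated-like cells had 618 CPM in library 2 and 633 CPM in library 3. Alveolar macrophage-like cells had 370, 579, 280 and 498 CPM in libraries 1, 2, 3 and 7, which differed in their mix of clusters, with 718 of the 760 cells of library 3 in cluster 13. C1q macrophage-like cells had 87.9, 104, 100 and 80.9 CPM, below every library of alveolar macrophage-like cells.

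The macrophage clusters of libraries 1, 2, 3 and 7 were compared by member. Alveolar macrophage-like cluster 4 had 522 CPM of S100a1 and 605 CPM of S100a6, and cluster 13, of which 718 of 1094 cells are in library 3, had 332 and 143 CPM. Within libraries 1, 2, 3 and 7, S100a1 was 373, 594, 306 and 514 CPM in cluster 4 and 354, 501, 278 and 370 CPM in cluster 13, a smaller gap than in the pool. S100a6 was 254, 836, 657 and 441 CPM in cluster 4 and 135, 136, 146 and 143 CPM in cluster 13. The unnamed cluster 9 stood at 294 CPM of S100a1, 927 CPM of S100a6 and 338 CPM of S100a4. C1q macrophage-like cells, cluster 14, had 94.4 CPM of S100a1, 700 CPM of S100a6 and 626 CPM of S100a4. S100a4 in clusters 4 and 13 was 162 and 75.9 CPM, but 94.8 and 104 CPM within library 1.

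S100a13, which takes part in the export of FGF1, had the flattest profile. Endothelial-like cells were first at 437 CPM (428 to 446), an interval that overlapped that of NK cell-like cells at 411 CPM (376 to 450). Lymphatic endothelial-like (314 CPM) and ciliated-like cells (307 CPM) came next and could not be told apart, and T cell-like cells had 274 CPM. The lowest class, neutrophil-like cells, was 8.24-fold below the first. In libraries 1, 2, 3 and 7 endothelial-like cells had 362, 462, 462 and 369 CPM and NK cell-like cells 385, 444, 432 and 355 CPM. The 3 endothelial-like clusters had 450, 409 and 422 CPM. In libraries 4, 5 and 6, without endothelium, NK cell-like cells were first at 272 CPM.

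By level, S100a1 and S100a13, whose starts are 105 bases apart, did not share their leading classes, apart from ciliated-like cells. These were first for S100a1 and among the 5 highest for S100a13. By share of UMIs, alveolar macrophage-like cells were the largest named source of both, with 49.5% of S100a1 and 23.9% of S100a13. The shares differ in kind. S100a1 was 522 CPM in cluster 4 and 332 CPM in cluster 13 of this class, against 191 CPM over all cells of the libraries with epithelium. S100a13 was 252 and 260 CPM, little above the 219 CPM of all these cells. The share of S100a13 is therefore close to the class's share of all UMIs. Over the 21 classes, the log2 levels of S100a1 and S100a13 had a Pearson correlation of 0.513. S100a8 and S100a9 had 0.996, S100a8 and S100a11 0.484, S100a10 and S100a13 0.522, and S100a4 and S100a9 -0.506. These values are descriptions, since the classes share libraries and each level is relative to the total of its class. Those of S100a8 and S100a9 also take in the cells of 20 or more UMIs of the pair and the free RNA described above, so they do not show that other classes make both genes.

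The 5 members that had the same first class in both sets of libraries were S100a4, S100a6, S100a8, S100a9 and S100a11. The first classes of S100a1, S100a10 and S100a13 (ciliated-like, mesothelial-like and endothelial-like) had 0 cells in libraries 4, 5 and 6. These members could therefore not keep their first class there. Mesothelial-like cells, close behind for S100a6, were also absent. In libraries 4, 5 and 6 neutrophil-like cells had 85095 CPM of S100a8, 90780 CPM of S100a9, 5119 CPM of S100a6 and 3609 CPM of S100a11, and classical monocyte-like cells had 3253 CPM of S100a4. Erythroid-like cells of these libraries had 40.7 CPM of S100a10 and less of S100a1, S100a4, S100a6, S100a11 and S100a13. Megakaryocyte or platelet-like cells had 278 CPM of S100a10 and 62.8 CPM of S100a1.

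Genes with a like profile were sought among 8367 genes by correlation over the 21 classes. For S100a8 they were S100a9, Retnlg (0.953) and Mmp9 (0.940), the latter pair a secreted peptide and a protease of neutrophils, over class levels that include the same cells and free RNA. For S100a4 they were Arl5c (0.894), Ms4a4c (0.846) and Ifi209 (0.830). S100a1 was most like Cdkl2 (0.890), Tacc2 (0.860) and Cyb5a (0.849), all highest in ciliated-like cells. S100a13 was most like Ppid (0.864), Ociad1 (0.861) and Ssna1 (0.855), and S100a10 most like Mrpl15 (0.816), Anp32b (0.805) and Ppp1r14b (0.802). S100a11 had R3hdm4 (0.743), Gm6169 (0.701) and Stfa1 (0.667). S100a6 had no close match, with Ifi27l2a at 0.632, Gsdme at 0.627 and Casp4 at 0.593.

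Of 12 partners and receptors of S100 proteins, Anxa2, the partner of S100a10, was highest in alveolar macrophage-like cells at 1510 CPM and second in neutrophil-like cells at 1041 CPM. Neutrophil-like cells thus had much Anxa2 and 25.8 CPM of S100a10, whereas B cell-like cells, lowest for Anxa2 at 122 CPM, had 620 CPM of S100a10. Anxa1, the partner of S100a11, was highest in ciliated-like (676 CPM) and neutrophil-like cells (598 CPM), the same pair of classes that led S100a11, in the other order. Anxa11 had the same first classes (179 and 161 CPM), while Anxa5 was highest in fibroblast-like cells (844 CPM) and lowest in neutrophil-like cells (35.3 CPM).

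Among receptors, Ager, which encodes RAGE and marks alveolar type 1 cells, was found in alveolar type 2-like (805 CPM) and club-like cells (783 CPM), and no class was named alveolar type 1-like. Tlr4 was highest in alveolar macrophage-like (54.0 CPM) and neutrophil-like cells (40.5 CPM). Bsg, another receptor of S100A9, led in mesothelial-like cells (1226 CPM) and was lowest in neutrophil-like cells (69.9 CPM). Cd36 was highest in endothelial-like cells (1963 CPM). Of the targets of single members, Myh9, bound by S100A4, was highest in basophil or mast cell-like cells (912 CPM), Cacybp, bound by S100A6, in ciliated-like cells (146 CPM), and Fgf1, exported with S100A13, in mesothelial-like cells (129 CPM). Syt1 had 8 UMIs in all.

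The 8 other S100 genes looked at were mostly rare. S100g was almost confined by value to alveolar type 2-like cells, with 1633 CPM (1603 to 1664) there and 35.7 CPM in club-like cells, the next class. S100a16 was an endothelial gene here, with 718 CPM in lymphatic endothelial-like and 612 CPM in endothelial-like cells. S100a14 reached 37.3 CPM in club-like cells and S100b 16.5 CPM in ciliated-like cells. S100a3, S100a5, S100a7a and S100z stayed at 5.19 CPM or less in every class.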

How the data were processed

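Single-cell libraries of mouse lung were analysed from the deposited matrix of UMI counts per gene and cell. The authors made these counts with Cell Ranger 3.1.0 (per the file headers) and its STAR aligner, and mm10 is the build in the submitters' processing notes. The supplementary methods state that reads were down-sampled to even out the libraries, and they name another version of the kit than the labels do. The deposited counts are raw, and lower depth widens the counting intervals given with each value.

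The 8 members and the gene lists were chosen with earlier results of these data known. Barcodes with at most 10% mitochondrial UMIs were kept. Cells were scaled to 10000 UMIs each before the log, and 30 principal components were taken from the 2000 most variable genes. Alignment of libraries used mutual nearest neighbors (20 neighbors), followed by clustering with leidenalg 0.10.2 at a resolution of 0.8 (python-igraph 0.11.9, Python 3.11.15, numpy 2.4.6, scipy 1.17.1, pandas 2.3.3, scikit-learn 1.9.0). A cluster took the class of highest mean standardized marker level that had at least 3 markers in 10% of its cells and was not outnumbered by another class among its 10 leading genes. This naming rule was fixed once the clusters had been seen. The named genes are the 8 members, the fixed lists of 12 partners and receptors and 8 other S100 genes, and for each member the 3 genes of highest correlation of log2(CPM + 1) over classes of at least 50 cells, among genes of at least 50 CPM in 1 of those classes. The limit of 20 UMIs for cells rich in S100a8 and S100a9 was set after the data were seen. By-library values are given for classes of at least 30 cells in a library.

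Doublets were called with Scrublet in scanpy 1.11.5 and left in, except in an alternative. It called 693 of 20856 cells (3.32%) in libraries 1, 2, 3 and 7 and 16 of 12762 (0.125%) in libraries 4, 5 and 6, where it did not work. Positions are from GENCODE M21 (30934 of 31053 identifiers matched). Promoters are RefSeq's for 7 of 8 members. No count test was run, because the libraries carry no group. The steps were tested on simulated data. Alternatives were a 5% mitochondrial limit, the study's limits of 2 standard deviations around the mean UMIs and genes, a resolution of 0.4, no alignment, doublets left out, classes by markers in single cells, thinning to 500 UMIs and each library left out. Figures were drawn with matplotlib 3.10.9.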

Additional observations from a re-analysis of the deposited data

How the results depend on the processing

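No paired analysis was possible because the barcodes give no library a sample, group or replicate number. Of 91 alternatives over 10 results, 45 stayed within the counting interval of the value reported and 46 moved beyond it, 18 of them by leaving out a library, and none reversed a direction, since no result has one to test. Removing the alignment moved none. A 5% mitochondrial limit gave 5567 CPM of S100a6, 47514 of S100a8, 55376 of S100a9 and 5647 of S100a11 in neutrophil-like cells and 417 of S100a13 in endothelial-like cells, below the 423 of NK cell-like cells. The study's limits gave 903 CPM of S100a1 in ciliated-like cells and 5429, 48965, 55987 and 5219 for S100a6, S100a8, S100a9 and S100a11. A resolution of 0.4 gave 2866 CPM of S100a4 in classical monocyte-like cells and 5503, 48986, 56002 and 5204 for the neutrophil genes in the same order. Without the cells called doublets, S100a1 was 701 CPM, and S100a6 was highest in mesothelial-like (5653) and not neutrophil-like cells (5599). Classes by markers in single cells gave 4505, 38439, 43926 and 4095 CPM for the neutrophil genes and 388 of S100a13, below 398 in NK cell-like cells. All 7 libraries, an alternative chosen after seeing the data, gave 3126 CPM of S100a4 and 5375, 69550, 76127 and 4481 for the neutrophil genes, with S100a6 then highest in mesothelial-like cells (5405). Thinning to 500 UMIs gave shares of 1.79% of B cell-like and 5.74% of alveolar macrophage-like cells. The causes were not tested.

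With each library left out, the level ran from 608 to 645 CPM for S100a1, 2878 to 2969 for S100a4, 5528 to 5824 for S100a6, 50733 to 52395 for S100a8, 58616 to 60872 for S100a9, 5227 to 5898 for S100a11 and 409 to 454 for S100a13. S100a10 in mesothelial-like cells was 1717 CPM without library 1. The share with S100a8 or S100a9 ran from 2.78% to 4.35% in B cell-like cells and from 7.51% (without library 2) to 13.0% in alveolar macrophage-like cells. Too few cells remained for S100a10 in mesothelial-like cells without library 2, 3 or 7, under the 5% limit, under the study's limits and by single-cell markers, and for S100a1 in ciliated-like cells under the 5% limit. Depth limits small or shallow classes, such as the eosinophil-like cells, most.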

Other observations

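The unnamed clusters of libraries 1, 2, 3 and 7 also carried the S100 genes unevenly. Cluster 40, 124 cells led by the chemokine genes Ccl4 and Ccl3 and by Il1rn and Csf1, had 11470 CPM of S100a8, 10118 of S100a9 and 3131 of S100a6, but 47.2 of S100a10 and 23.6 of S100a4, and 101 of its cells were in library 7. Its S100a8 exceeded its S100a9, unlike in the neutrophil-like clusters. Cluster 33, 106 cells led by the neutrophil genes Csf3r, Cxcr2 and Retnlg with classical monocyte as the best-scoring class, had 12910 CPM of S100a8 and 15398 of S100a9 beside 1322 of S100a4. Cluster 26, 273 cells led by the division genes Top2a, Pclaf and Mki67 with alveolar macrophage as the best-scoring class, had 264 CPM of S100a1, 1034 of S100a10, 76.8 of S100a8 and 18.1 of S100a9. Cluster 19 was led by immunoglobulin genes and Mzb1, with plasma cell as the best-scoring class, but Ighd and the B cell markers Cd79a and Fcmr were also among its leading genes. In its 70 cells it had 35.2 CPM of S100a6 and 3.91 of S100a4, far below the B cell-like class.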
